A study of Mus musculus with 15 samples.

Results

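The genes described here are 10 immediate-early genes of the mouse: Arc, Ier2, Ier3, Ier5, Nr4a1, Nr4a2, Klf4, Klf6, Klf10 and Zfp36. They were chosen by gene name, with earlier results of these data known, and all 10 were matched by symbol among the 45706 genes listed for each library. Immediate-early genes are transcribed within minutes of a stimulus from factors the cell already holds, so their first wave needs no new protein synthesis. Serum response factor (SRF) is one of those factors. It binds a DNA element called the CArG box and is helped by ternary complex factors of the Elk family, which ERK signalling activates, or by myocardin-related cofactors, which actin dynamics release. CREB, which binds the cAMP response element, is another such factor, and many immediate-early promoters are known to answer to more than one of them. The products fall into a few kinds: a synaptic cytoskeletal effector (Arc), small regulatory proteins (Ier2, Ier3, Ier5), DNA-binding transcription factors (Nr4a1, Nr4a2, Klf4, Klf6, Klf10) and an RNA-binding protein that destabilises messages (Zfp36).

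Polyadenylated RNA was measured in cultured oligodendrocyte precursor cells (OPCs), a proliferating cell type of the brain, and in oligodendrocytes (OLs), the myelin-forming cells grown from them. All cells came from brains of mice with SRF floxed/floxed alleles, which Cre recombinase can delete, and were isolated by immunopanning on dishes coated with antibody. The 3 SRF-KO OPC libraries came from cells given an adeno-associated virus (AAV) expressing eGFP-cre from the CMV promoter on culture day 3 and frozen after a further 48 h. The 4 control OPC libraries received the matching AAV with a deleted Cre. The 4 SRF-KO OL libraries came from cells given a lentivirus with CRE-IRES-GFP on day 6, moved to differentiation medium the next day and frozen on day 3 of differentiation. The 4 control OL libraries received a GFP lentivirus. Every group carried the floxed alleles, and cells without them that received Cre were not analysed here. Animal age is not given in the sources used here, and neither is whether libraries came from separate cultures or animals, so p-values measure only the spread between these libraries. The viruses reach whatever cells the culture holds, and the stage of the cells, the virus and the time in culture differ together between OPCs and OLs.

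The 7 OPC libraries held 8964310 to 16026511 expected counts each and the 8 OL libraries 4303739 to 13139258. Srf itself was at 0.196 to 0.221 normalised CPM in SRF-KO OPCs, against 5.57 to 9.67 in control OPCs, and at 2.06 to 4.34 in SRF-KO OLs, against 7.13 to 9.34 in control OLs. Normalised CPM are counts divided by TMM-adjusted library sizes, separately for each stage. The log2 fold change of Srf was -5.16 in OPCs (SE 0.40, edgeR adjusted p = 0.000569) and -1.45 in OLs (SE 0.22, edgeR adjusted p = 0.0224). The OPC call held in all 15 other settings. The OL call was lost in 8 of 16, namely on log2(TPM + 1) (adjusted p = 0.138), with the replicate block (0.193) and when replicate 1, 2 or 3 of the SRF-KO OLs or of the control OLs was left out (0.0724 to 0.104 in edgeR). The OL gene-body counts of Srf may hold reads of an annotated gene on the opposite strand, Gm26904, which it overlaps and which the libraries cannot tell apart from it. The 8 OPC markers summed to 4923 to 6424 CPM in SRF-KO OPCs and 6581 to 6934 in control OPCs, and the myelin gene Mog was at 0 in every OPC library. The 7 markers of myelinating oligodendrocytes summed to 12860 to 17900 CPM in SRF-KO OLs and 18030 to 34780 in control OLs. One library of each stage stood apart on the first principal component, SRF-KO OPC replicate 2 (47.6, against -22.95 to 6.01 in the other 6) and SRF-KO OL replicate 4 (80.5, against -18.8 to 0.448 in the other 7). For some of the values that rest on these libraries, estimates without them are given, and for others the range over single left-out libraries.

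Promoter sequence, from 250 bases before to 50 after the annotated start, was taken from RefSeq (GRCm38.p6) for 7 of the 10 members. Arc, Ier2 and Klf10 had no matched entry. The CArG box, CC followed by 6 bases of A or T and then GG, was found in 1 of the 7, that of Zfp36, and in 1.63% of all 32851 promoters searched. The short core of the cAMP response element, TGACG on either strand, was found in 3 of the 7 (Nr4a1, Nr4a2 and Klf4) and in 20.8% of all promoters. On the strand of the gene alone TGACG was in 1 of the 7 (Nr4a2) and in 12.4% of all promoters. The full palindromic element TGACGTCA was in 0 of the 7 and in 1.79% of all promoters. The ETS core CCGGAA, read on both strands, was in Zfp36 and Nr4a1 and in 14.9% of all promoters. The NBRE, AAAGGTCA, to which NR4A receptors bind as monomers, was in 0 of the 7 and in 1.51% of all promoters. A TATA motif, TATAAA on either strand, was in Nr4a2 alone of the 7 and in 13.6% of all promoters. That match lies on the strand opposite to the gene, at -164 to -159 from the start. On the strand of the gene TATAAA was in 0 of the 7 and in 8.32% of all promoters. The stretches that hold the repeated core matches and the CArG box are printed to show where the 2 motifs lie. Capitals mark the TGACG core (CGTCA on the other strand) in Nr4a1 and Nr4a2 and the CArG box in Zfp36, and each is written on the strand of its gene.
Nr4a1, chr15:101266596-101266845, plus strand: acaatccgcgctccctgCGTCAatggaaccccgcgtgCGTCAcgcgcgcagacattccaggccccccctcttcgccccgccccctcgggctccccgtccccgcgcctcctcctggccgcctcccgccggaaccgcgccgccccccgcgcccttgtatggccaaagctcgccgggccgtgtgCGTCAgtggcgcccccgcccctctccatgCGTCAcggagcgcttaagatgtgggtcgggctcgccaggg
Nr4a2, chr2:57124004-57124253, minus strand: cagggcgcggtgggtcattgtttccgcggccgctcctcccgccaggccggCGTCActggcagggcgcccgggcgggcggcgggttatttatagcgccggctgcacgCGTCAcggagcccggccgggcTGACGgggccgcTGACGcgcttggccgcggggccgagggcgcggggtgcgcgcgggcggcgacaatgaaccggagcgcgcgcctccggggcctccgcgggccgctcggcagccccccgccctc
Zfp36, chr7:28379267-28379296, minus strand: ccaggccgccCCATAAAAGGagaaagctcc

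Both receptor promoters held 4 core matches, and that of Klf4 held 1. The Nr4a1 window lies inside an intron of a longer annotated transcript, the Nr4a2 window outside any annotated feature, and the Zfp36 stretch inside the UTR of a longer annotated transcript. These matches describe letters only and show no binding.

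Levels were compared between genes on the TPM scale, which accounts for gene length, and within a stage. In OPCs Klf10, which encodes a zinc-finger factor known to be induced by TGF-beta, stood first, with 67.1 ± 2.98 TPM in SRF-KO OPCs (SD, n = 3) and 93.2 ± 14.5 TPM in control OPCs (SD, n = 4). Ier3 and Ier2 came next in SRF-KO OPCs, at 49.9 ± 10.9 and 43.4 ± 1.52 TPM, and their libraries overlapped. In control OPCs the order of this pair was the other way round, with Ier2 at 63.8 ± 1.85 TPM and Ier3 at 51.95 ± 5.47 TPM, and there they did not overlap. Nr4a1 (25.9 ± 2.39 TPM) and Klf6 (23.2 ± 2.47) overlapped in SRF-KO OPCs, whereas Nr4a1 (36.3 ± 2.62) lay above Klf6 (24.5 ± 2.34) in every control OPC library. The lower end held Ier5, Zfp36, Arc, Nr4a2 and Klf4, at 6.96, 2.72, 2.53, 1.80 and 1.38 TPM in SRF-KO OPCs and 10.7, 2.49, 6.47, 2.23 and 1.51 TPM in control OPCs. In control OPCs only Zfp36 and Nr4a2 overlapped among all neighbours in the order.

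**Figure D1:**
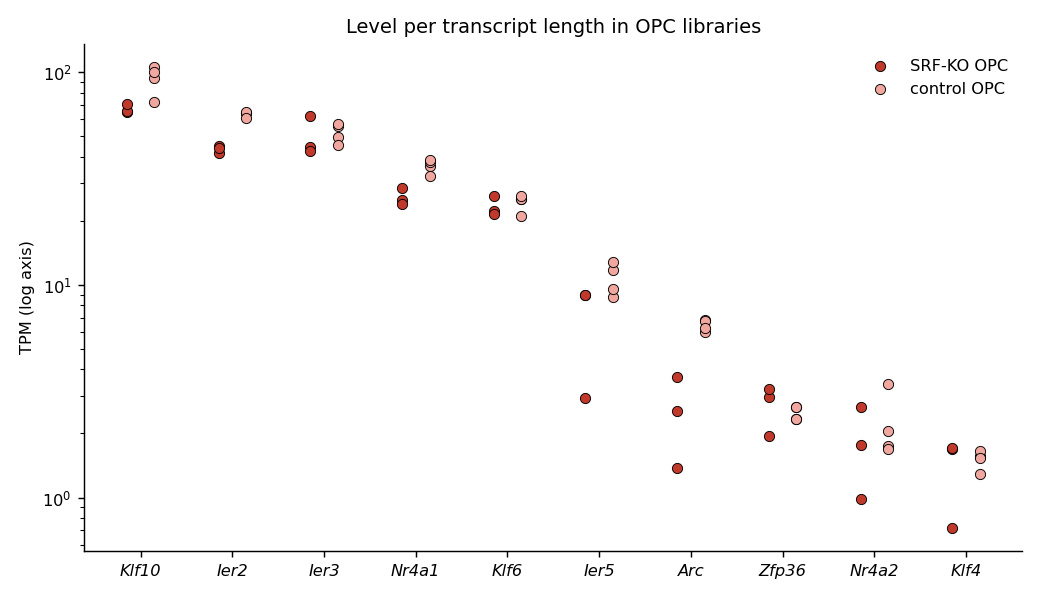
TPM per OPC library on a log axis for the 10 members, ordered by their mean in control OPCs, with SRF-KO OPC libraries beside control OPC libraries. Klf10 led in both groups, and Arc stood at 2.53 TPM in SRF-KO OPCs against 6.47 TPM in control OPCs.

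In OLs the listed gene lengths include introns, so TPM there is per gene body and is set beside no OPC value. Ier2 and Ier5 are single-exon genes with the same listed length in both stages. The listed length of Klf6 was 4217 bases in OPCs and 8905 in OLs. The OL order by TPM thus depends on intron length. By mean CPM, not scaled by length, Klf6 was highest, at 53.4 in SRF-KO OLs and 39.6 in control OLs. Ier5 was at 35.5 and 31.3 CPM there, and Ier2 at 14.8 and 15.1. OL counts take in introns, which Ier2 and Ier5 lack, so the order by CPM can also depend on introns. Ier5 (30.3 ± 9.63 TPM) and Ier2 (26.6 ± 3.02) led in SRF-KO OLs and overlapped, as did Ier2 (22.7 ± 4.90) and Ier5 (21.5 ± 6.31) in control OLs (SD, n = 4 each). Klf6, Klf10 and Ier3 followed at 15.9, 14.9 and 14.5 TPM in SRF-KO OLs and 9.84, 12.6 and 7.96 TPM in control OLs, and neighbours among the 3 overlapped in both groups. Klf4, a zinc-finger factor known from pluripotency reprogramming, was lowest in both, at 0.368 TPM in SRF-KO OLs and 0.138 TPM in control OLs.

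In OPCs 4 members, Arc, Ier2, Nr4a1 and Klf10, were lower in each SRF-KO library than in any control library, and no member was higher in that way. The count without overlap covers 6.25% of all 13271 genes tested in the lower direction and 5.96% in the higher direction. The edgeR quasi-likelihood test, with Benjamini-Hochberg adjustment over all genes tested, called 0 of the 10 members at an adjusted p under 0.05, where it called 0.0678% of all genes. DESeq2 called 3 members, all lower, where it called 0.957% of all genes. At an unadjusted p under 0.05 edgeR gave 4 members lower and 0 higher, where 6.33% of all genes were lower and 5.57% higher, and these were Arc, Ier2, Nr4a1 and Klf10 with and without SRF-KO OPC replicate 2. The 10 members had a median log2 fold change of -0.36 and 8 were negative, beside a median of -0.00 and 6663 negative of the 13271 genes tested.

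Arc (chromosome 15, 74669083 to 74672570, minus strand) encodes a cytoskeleton-associated protein best known at synapses of neurons. It had 7.95, 3.01 and 5.37 CPM in the 3 SRF-KO OPC libraries, against 15.2, 12.7, 12.6 and 12.6 CPM in the 4 control OPC libraries. All SRF-KO libraries lay below all control libraries, and SRF-KO OPC replicate 2, which stood apart on the principal component, was the lowest. The counts were 46 to 72 in SRF-KO OPCs and 115 to 204 in control OPCs. The means were 5.45 ± 2.47 CPM in SRF-KO OPCs (SD, n = 3) and 13.3 ± 1.28 CPM in control OPCs (SD, n = 4), a fold of 0.400. The log2 fold change was -1.32 (SE 0.28, 95% interval -1.94 to -0.70) with an edgeR adjusted p of 0.172, so it did not pass. DESeq2 gave a log2 fold change of -1.32 and an adjusted p of 0.00268. Without SRF-KO OPC replicate 2 the edgeR estimate was -0.999 with an adjusted p of 0.258, so Arc was also lower in the other 2 SRF-KO libraries.

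Of the 3 genes for small regulatory proteins, Ier2 lay apart between the groups, and Ier3 and Ier5 overlapped. Ier2 (chromosome 8, 84661331 to 84662852, minus strand) is a single-exon gene for a nuclear protein. It had 41.0, 44.6 and 41.9 CPM in SRF-KO OPCs, against 66.1, 62.4, 55.7 and 55.3 CPM in control OPCs, so the groups lay apart and the SRF-KO libraries were close together. The means were 42.5 ± 1.88 CPM in SRF-KO OPCs (SD, n = 3) and 59.9 ± 5.27 CPM in control OPCs (SD, n = 4), with a log2 fold change of -0.50 (SE 0.10, 95% interval -0.72 to -0.27). By edgeR's p it ranked 44 of 13271, and the adjusted p was 0.150. DESeq2 gave an adjusted p of 0.0139. Without SRF-KO OPC replicate 2 the log2 fold change was -0.53 (edgeR adjusted p = 0.205).

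Ier3 (chromosome 17, 35821684 to 35822923, plus strand), a stress-induced regulator of cell survival, had 30.3, 29.4 and 41.5 CPM in SRF-KO OPCs and 35.9, 30.5, 33.1 and 35.6 CPM in control OPCs. The groups overlapped, and the log2 fold change of -0.01 had a 95% interval of -0.31 to 0.30 (edgeR adjusted p = 0.992). Ier5 (chromosome 1, 155096361 to 155099636, minus strand), a single-exon gene whose product acts on the heat-shock factor HSF1, had 21.0, 6.94 and 20.4 CPM in SRF-KO OPCs and 28.3, 20.01, 25.7 and 20.8 CPM in control OPCs. One low library, SRF-KO OPC replicate 2, set most of its log2 fold change of -0.58 (SE 0.31, edgeR adjusted p = 0.486). Without that library the estimate was -0.19 (edgeR adjusted p = 0.780), and the other 2 SRF-KO libraries lay inside the control range.

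Nr4a1 (chromosome 15, 101254269 to 101274795, plus strand), an orphan nuclear receptor also called Nur77, had 43.2, 42.0 and 47.8 CPM in SRF-KO OPCs, against 63.95, 63.8, 57.0 and 52.1 CPM in control OPCs. The highest SRF-KO library was below the lowest control library. The means were 44.3 ± 3.07 CPM in SRF-KO OPCs (SD, n = 3) and 59.2 ± 5.74 CPM in control OPCs (SD, n = 4), with a log2 fold change of -0.42 (SE 0.11, edgeR adjusted p = 0.219). DESeq2 did not call it either (adjusted p = 0.0742). Its relative Nr4a2 (chromosome 2, 57106830 to 57124003, minus strand), also called Nurr1 and known for its role in dopaminergic neurons, had 3.53, 2.55 and 4.83 CPM in SRF-KO OPCs and 4.40, 3.10, 3.84 and 6.70 CPM in control OPCs. These overlapped, and the log2 fold change of -0.32 had a 95% interval of -1.08 to 0.44, which includes the estimate for Nr4a1. It was -0.104 without SRF-KO OPC replicate 2 and -0.58 when SRF-KO OPC replicate 3 was left out, and leaving out control OPC replicate 4 gave -0.0678. Rounded counts behind it were 32 to 45 in SRF-KO OPCs and 35 to 78 in control OPCs.

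Of the 3 Krüppel-like factors, Klf10 lay apart between the groups, and Klf6 and Klf4 overlapped. Klf10 (chromosome 15, 38291463 to 38300706, minus strand) had 140.6, 143.8 and 147.8 CPM in SRF-KO OPCs, against 161.3, 198.4, 196.7 and 201.6 CPM in control OPCs. The groups lay apart, and control OPC replicate 1 was the control library nearest the SRF-KO libraries. The means were 144.1 ± 3.60 CPM in SRF-KO OPCs (SD, n = 3) and 189.5 ± 18.9 CPM in control OPCs (SD, n = 4), with a log2 fold change of -0.40 (SE 0.09, edgeR adjusted p = 0.207). DESeq2 gave an adjusted p of 0.0388. Klf6 (chromosome 13, 5861482 to 5870394, plus strand), a factor known to act in oligodendrocyte differentiation, had 67.9, 80.9 and 63.7 CPM in SRF-KO OPCs and 65.96, 75.9, 66.8 and 74.8 CPM in control OPCs. These overlapped, and the log2 fold change of 0.00 had a 95% interval of -0.23 to 0.24, which does not include the estimate for Klf10. The sign of so small a value turned with no filter, over all 15 libraries, on log2(TPM + 1) and without single libraries. Klf4 (chromosome 4, 55527143 to 55532466, minus strand) had 3.65, 3.73 and 1.504 CPM in SRF-KO OPCs and 3.43, 3.48, 2.86 and 2.58 CPM in control OPCs, with a log2 fold change of -0.05 and a wide 95% interval of -0.85 to 0.74 on 14 to 57 counts in SRF-KO OPCs and 26 to 55 in control OPCs.

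Zfp36 (chromosome 7, 28376784 to 28380253, minus strand) encodes tristetraprolin, which binds AU-rich elements and brings messages to decay. It had 2.32, 3.60 and 3.76 CPM in SRF-KO OPCs and 3.28, 2.72, 2.42 and 2.92 CPM in control OPCs. The groups overlapped, and the log2 fold change of 0.19 had a 95% interval of -0.50 to 0.87 on 21 to 55 counts in SRF-KO OPCs and 22 to 44 in control OPCs. Zfp36 was the one member whose promoter window held an exact CArG match, and 3 of the 4 members that lay apart had no matched promoter. The search took only exact matches in a short window, and a relation between matches and knockout values was not tested. An annotated gene on the opposite strand, Gm44710, covers 1274 bases of Zfp36, and its reads cannot be told apart from those of Zfp36 in these unstranded libraries.

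**Figure D2:**
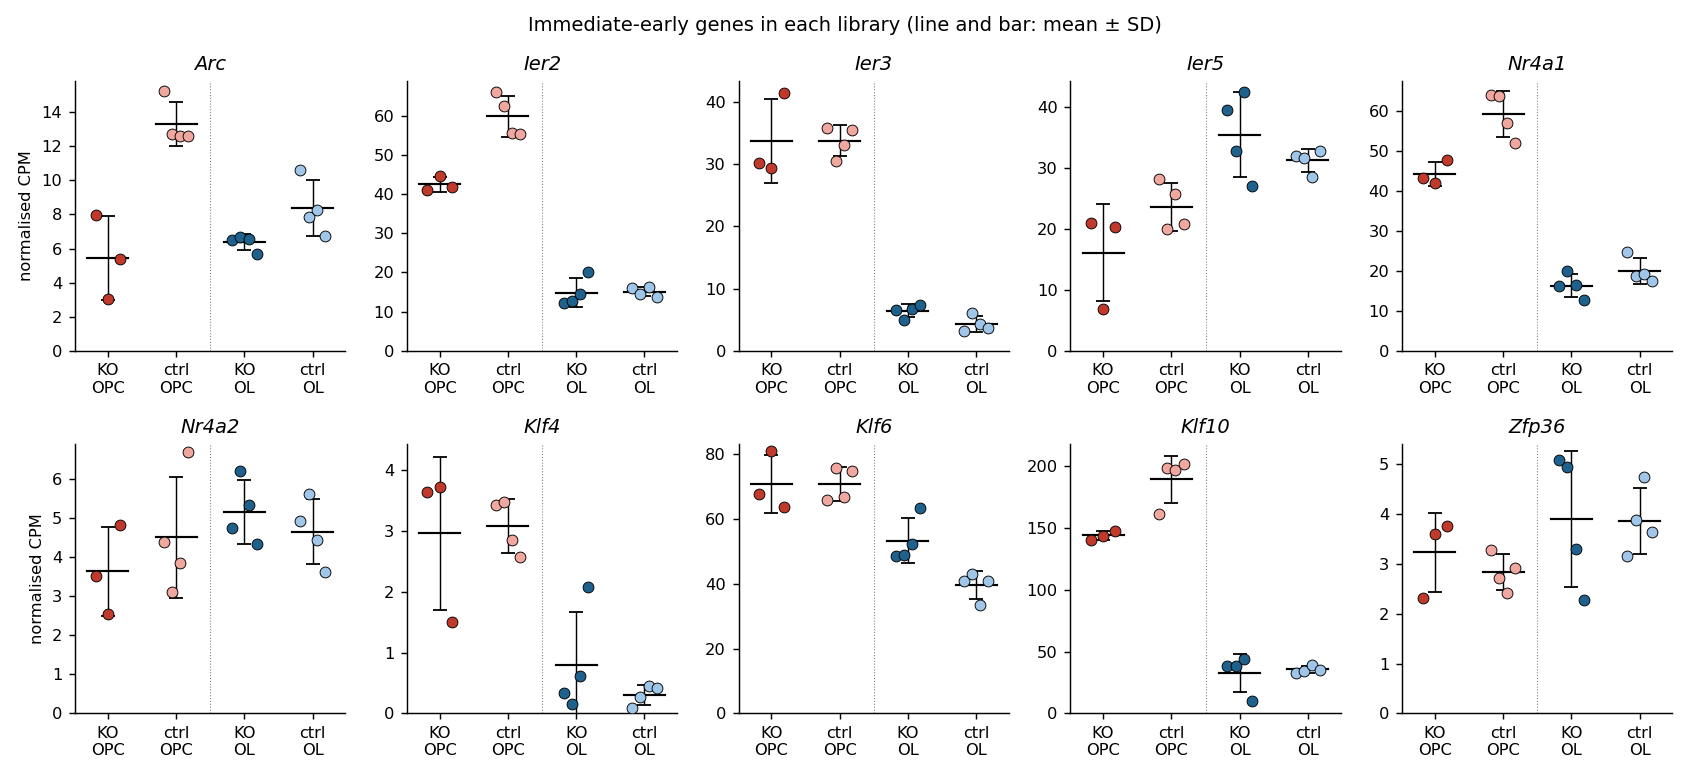
Normalised CPM per library for each of the 10 members in SRF-KO OPCs, control OPCs, SRF-KO OLs and control OLs, with bars for the mean and SD and the SD bar of Klf4 in SRF-KO OLs cut at 0. Arc, Ier2, Nr4a1 and Klf10 lay apart in OPCs, and in OLs Arc was lower and Klf6 higher in every SRF-KO library.

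For the 4 members that lay apart, log2 fold changes stayed negative in all 15 other settings in OPCs. They were at -1.70 to -0.999 for Arc, -0.55 to -0.44 for Ier2, -0.48 to -0.38 for Nr4a1 and -0.46 to -0.36 for Klf10. These 4 were picked for lying apart in the same libraries, so leaving out 1 library could hardly turn their signs. Ier5 and Nr4a2, whose groups overlapped, were also negative in all 15 settings. Which of the 4 passed an adjusted p of 0.05 varied. Arc passed in DESeq2, in edgeR with no filter on low counts (adjusted p = 0.00938, a setting that called 0.466% of all genes) and in edgeR fitted over all 15 libraries (adjusted p = 0.0324, with 0.192% of all genes called). Ier2 passed in DESeq2 and with no filter (adjusted p = 0.0490). Klf10 passed in DESeq2 and not elsewhere, and Nr4a1 passed nowhere. Over the same libraries the summed OPC markers were lower in every SRF-KO library, as given above, the 6 astrocyte markers summed to 619 to 637 CPM in SRF-KO OPCs and 469 to 517 in control OPCs, and the 13 mitochondrially encoded genes to 30140 to 34890 CPM in SRF-KO OPCs and 26060 to 29030 in control OPCs. The part of these shifts in the members' values was not tested. Microglial markers summed to 0.442 to 1.61 CPM in SRF-KO OPCs and 0 to 0.859 in control OPCs, with 7 of 8 genes at 0 in every SRF-KO library and 6 of 8 in every control library, and the neuronal markers to 28.1 to 35.7 CPM in SRF-KO OPCs and 29.6 to 34.9 in control OPCs. In bulk RNA, fewer cells of a type and less RNA per cell cannot be told apart.

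**Figure D3:**
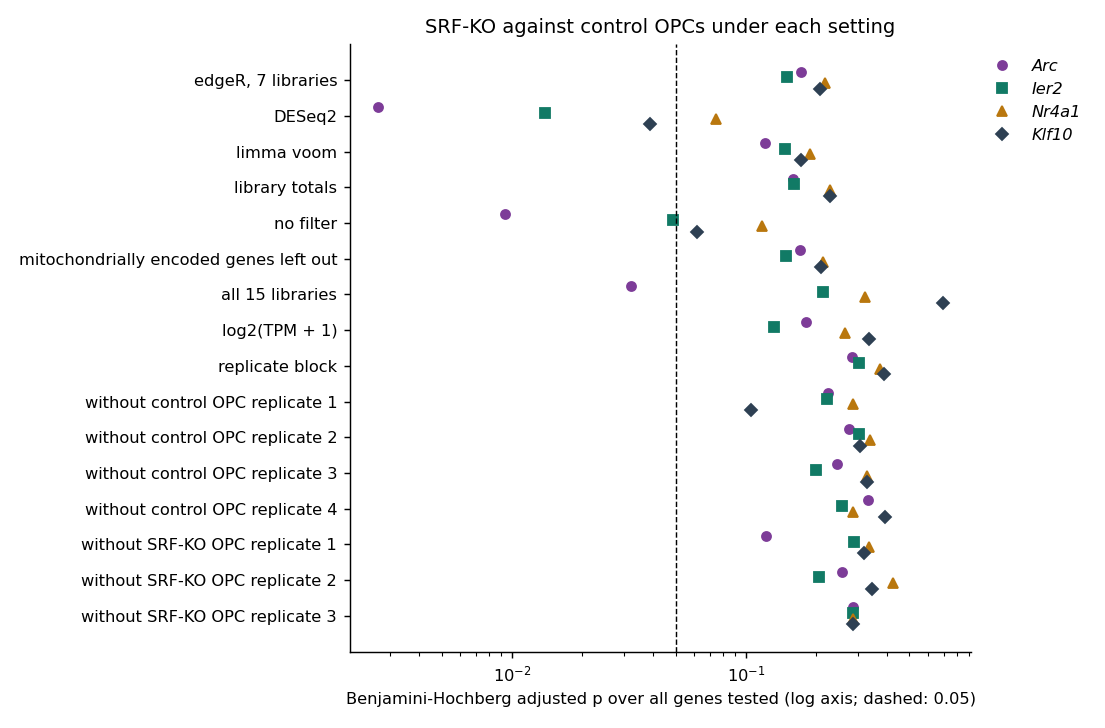
Adjusted p of Arc, Ier2, Nr4a1 and Klf10 for SRF-KO OPC against control OPC on a log axis, 1 row per setting, with a line at 0.05. Points left of the line are Arc in 3 settings, Ier2 in 2 and Klf10 in 1.

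In OLs 1 member, Arc, was lower and 1 member, Klf6, was higher in every SRF-KO library than in every control library, where 3.9% of all 15193 genes tested were lower and 4.19% higher in that way. Neither passed: edgeR called 0 of 9 tested members, where it called 0.296% of all genes, and DESeq2 called 0, where it called 1.97%. At an unadjusted p under 0.05 edgeR gave 0 members lower and 2 higher (Klf6 and Ier3), where 5.73% of all genes were lower and 5.84% higher. Without SRF-KO OL replicate 4 the 2 were Klf6 and Ier5. The 9 tested members had a median log2 fold change of 0.10 and 4 were negative, beside a median of 0.02 and 7006 negative of the 15193 genes tested. Scaling by library totals moved the median of all genes up by 0.22 in this comparison, so OL values are relative to TMM scaling.

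Arc had 6.52, 6.70, 6.58 and 5.66 CPM in SRF-KO OLs, against 10.6, 7.82, 8.26 and 6.71 CPM in control OLs. The highest SRF-KO library (6.70) was just below the lowest control library (6.71). The means were 6.37 ± 0.478 CPM in SRF-KO OLs and 8.35 ± 1.64 CPM in control OLs (SD, n = 4 each), with a log2 fold change of -0.38 (SE 0.18, 95% interval -0.78 to 0.02, edgeR adjusted p = 0.461). The sign was negative in all 16 settings tried, from -0.48 to -0.06. Since the groups lay apart for Arc, leaving out 1 library could hardly turn that sign.

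Klf6 had 48.6, 49.0, 52.45 and 63.4 CPM in SRF-KO OLs, against 40.9, 43.2, 33.5 and 41.0 CPM in control OLs. The lowest SRF-KO library was above the highest control library, and SRF-KO OL replicate 4, which stood apart on the principal component, was the highest. The means were 53.4 ± 6.90 CPM in SRF-KO OLs and 39.6 ± 4.21 CPM in control OLs (SD, n = 4 each), a fold of 1.34 and a log2 fold change of 0.42 (SE 0.14, edgeR adjusted p = 0.272). Without SRF-KO OL replicate 4 the estimate was 0.30 (edgeR adjusted p = 0.111).

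Ier3 had 6.52, 4.95, 6.79 and 7.36 CPM in SRF-KO OLs and 3.16, 6.06, 4.29 and 3.70 CPM in control OLs. Control OL replicate 2 lay above SRF-KO OL replicate 2, so the groups overlapped. The log2 fold change was 0.55 (SE 0.24, 95% interval 0.03 to 1.07, edgeR adjusted p = 0.399). It was positive in all 16 settings. SRF-KO OL replicate 4 was the highest library, and without it the estimate was 0.46 (edgeR unadjusted p = 0.0775, adjusted p = 0.286). Rounded counts behind these values were 33 to 77 in SRF-KO OLs and 28 to 69 in control OLs.

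Klf10 had 38.5, 38.1, 44.4 and 10.0 CPM in SRF-KO OLs, against 33.0, 34.6, 39.5 and 35.2 CPM in control OLs. The low value, 53 rounded counts, was that of SRF-KO OL replicate 4, where the other 3 SRF-KO libraries had 216 to 477. With that library the log2 fold change was -0.11 (SE 0.32, edgeR adjusted p = 0.943), and without it 0.15 (edgeR adjusted p = 0.439). The sign also turned with that library kept, at 0.12 with library totals and 0.0180 on log2(TPM + 1). SRF-KO OL replicate 4 had the highest Ier2 value of the group (20.2 CPM, against 12.1 to 14.4 in the other SRF-KO OLs). It had the lowest SRF-KO OL values for Arc, Ier5, Nr4a1, Nr4a2 and Zfp36. Its 13 mitochondrially encoded genes summed to 76570 CPM, the most of any OL library. The part of that in its member values was not tested.

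The other members overlapped between groups in OLs. Ier2 had 12.1 to 20.2 CPM in SRF-KO OLs and 13.8 to 16.2 in control OLs, with a log2 fold change of -0.04 (95% interval -0.42 to 0.34), and its estimate without SRF-KO OL replicate 4 was -0.24 (edgeR adjusted p = 0.268). Ier5 had 39.6, 32.8, 42.6 and 27.2 CPM in SRF-KO OLs and 32.01, 31.7, 28.6 and 32.8 CPM in control OLs, a log2 fold change of 0.18 (95% interval -0.15 to 0.51). Without SRF-KO OL replicate 4 the estimate for Ier5 was 0.254 (edgeR unadjusted p = 0.0393, adjusted p = 0.201). Nr4a1 had 16.2, 19.9, 16.45 and 12.6 CPM in SRF-KO OLs and 24.7, 18.6, 19.3 and 17.5 CPM in control OLs. Its log2 fold change of -0.28 (95% interval -0.65 to 0.08, edgeR adjusted p = 0.569) included the OPC estimate. Nr4a2 was at 5.16 ± 0.820 CPM in SRF-KO OLs and 4.66 ± 0.838 CPM in control OLs (SD, n = 4 each), with a log2 fold change of 0.16 (95% interval -0.29 to 0.62). Zfp36 was at 3.90 ± 1.36 CPM in SRF-KO OLs and 3.85 ± 0.663 CPM in control OLs (SD, n = 4 each), with a log2 fold change of 0.10 (95% interval -0.48 to 0.67). Without SRF-KO OL replicate 4 the estimate for Zfp36 was 0.2525 (edgeR adjusted p = 0.559).

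Klf4 was too low in OLs for the edgeR fit, at 2 to 11 rounded counts per library in SRF-KO OLs and 1 to 6 in control OLs. Its CPM were 0.339, 0.160, 0.617 and 2.08 in SRF-KO OLs and 0.093, 0.264, 0.459 and 0.419 in control OLs, and the exact two-sided permutation test of mean log2 CPM gave p = 0.343. In the OL cultures the 6 astrocyte markers, led by Gfap, summed to 8250 to 12550 CPM in SRF-KO OLs and 15800 to 33060 in control OLs. The microglial markers summed to 10.1 to 15.3 CPM in SRF-KO OLs and 9.32 to 14.2 in control OLs, and the neuronal markers to 11.4 to 18.5 CPM in SRF-KO OLs and 10.1 to 13.3 in control OLs. The part of other cell types in the members' OL values was not tested.

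**Figure D4:**
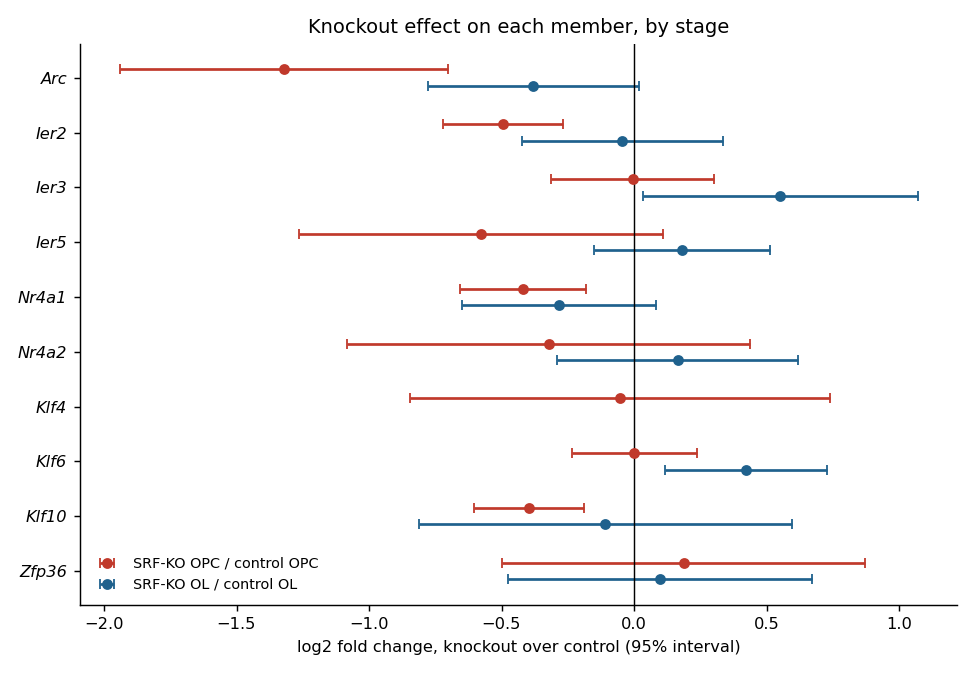
Log2 fold change of each member with its 95% interval from edgeR, SRF-KO OPC over control OPC and SRF-KO OL over control OL. The OPC intervals of Arc, Ier2, Nr4a1 and Klf10 lie below 0, the OL intervals of Klf6 and Ier3 lie above 0, and Klf4 has no fitted OL value.

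Whether the knockout effect differed between the stages was tested directly, as the OL effect minus the OPC effect over all 15 libraries. No member passed (edgeR called 0 of 10, where it called 0.112% of 16135 genes, and DESeq2 called 0, where it called 1.03%). The estimate was positive for 9 of the 10 members, Zfp36 being the exception at -0.12, and the sign for Zfp36 turned under scaling by library totals. The largest was that of Klf4, at 1.12 (edgeR adjusted p = 0.7425), which rests on the low OL counts given above. Without SRF-KO OL replicate 4 the value for Klf4 was 0.116. Over all genes tested, 7981 of 16135 were negative. The members share the same libraries, so their signs are not independent. At an unadjusted p under 0.05 edgeR gave 3 members higher and 0 lower, where 4.6% of all genes were higher and 4.65% lower. These were Arc at 0.93 (SE 0.34, edgeR adjusted p = 0.371), Ier5 at 0.76 (edgeR adjusted p = 0.533) and Klf6 at 0.40 (edgeR adjusted p = 0.517). Without SRF-KO OPC replicate 2 the value for Arc was 0.63 (edgeR adjusted p = 0.547) and that for Ier5 0.383 (edgeR adjusted p = 0.702), and the 3 members at an unadjusted p under 0.05 were Arc, Ier2 and Klf6. Without SRF-KO OL replicate 4 they were Arc, Ier5 and Klf10. Ier2 stood at 0.43 (edgeR adjusted p = 0.556), Ier3 at 0.54 (edgeR adjusted p = 0.566), Klf10 at 0.27 and Nr4a1 at 0.13 (edgeR adjusted p = 0.927). The value for Klf10 was 0.56 without SRF-KO OL replicate 4 (edgeR adjusted p = 0.0676). The stages used different viruses and were quantified differently, and these cannot be told apart from the stage.

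Genes related to the members were described from lists of paralogs, other immediate-early genes, cofactors and Zfp36 targets. Over all genes tested, edgeR called 0.0678% in OPCs and 0.296% in OLs. The shares at an unadjusted p under 0.05 were 6.33% lower and 5.57% higher in OPCs. In OLs they were 5.73% lower and 5.84% higher. Of 12 paralogs (such as other Klf, Nr4a, Ier and Zfp36-family genes), 11 were tested in OPCs. edgeR called 0, with 2 lower and 1 higher at an unadjusted p under 0.05, and the median log2 fold change was -0.15. The smallest p in OPCs belonged to Klf13, at 84.7 ± 12.8 CPM in SRF-KO OPCs (SD, n = 3) and 107 ± 4.54 CPM in control OPCs (SD, n = 4; log2 -0.34, edgeR adjusted p = 0.279), and to Klf9, at 7.53 ± 1.13 CPM in SRF-KO OPCs and 10.45 ± 1.48 CPM in control OPCs (log2 -0.48, edgeR adjusted p = 0.391). In OLs 11 paralogs were tested, 0 were called, 1 was lower at an unadjusted p under 0.05, and the median was 0.02. Klf13 was again first there, at 113.8 ± 51.5 CPM in SRF-KO OLs and 214.2 ± 14.1 CPM in control OLs (SD, n = 4 each; log2 -0.91, edgeR adjusted p = 0.237). Zfp36l1, a sister of Zfp36, followed at 65.2 ± 7.18 CPM in SRF-KO OLs and 76.3 ± 4.63 CPM in control OLs (log2 -0.22, edgeR adjusted p = 0.568).

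Of 43 other immediate-early genes, 37 were tested in OPCs and 1 was called, where 0.0678% of all genes were called. That gene, Egr1, a zinc-finger transcription factor, fell to 166.7 ± 9.99 CPM in SRF-KO OPCs (SD, n = 3), against 268.6 ± 10.9 CPM in control OPCs (SD, n = 4; log2 -0.69, edgeR adjusted p = 0.0152). The call was lost in 7 of 15 other settings, namely over all 15 libraries (adjusted p = 0.0573), with the replicate block (0.166) and when SRF-KO OPC replicate 1 or 3, or any of the control OPC replicates but the third, was left out (0.0520 to 0.0918 in edgeR). Egr2, of the same family, was at 4.65 ± 1.33 CPM in SRF-KO OPCs and 14.8 ± 3.34 CPM in control OPCs (log2 -1.66, edgeR adjusted p = 0.0559). It passed in 4 of 15 other settings, with adjusted p of 2.22e-06 in DESeq2, 0.000541 with no filter, 0.0207 over all 15 libraries and 0.0449 with library totals. At an unadjusted p under 0.05, 6 of the 37 were lower and 5 higher, where 6.33% of all genes were lower and 5.57% higher. The median was -0.06, against -0.36 for the 10 members. In OLs 35 were tested and edgeR called 0, with a median of 0.03. There 2 were lower and 4 higher at an unadjusted p under 0.05, where 5.73% of all genes were lower and 5.84% higher. The 2 with the smallest p in OLs had estimates of opposite sign. Btg2, an antiproliferative gene, was at 28.3 ± 1.88 CPM in SRF-KO OLs and 18.7 ± 2.16 CPM in control OLs (SD, n = 4 each; log2 0.60, edgeR adjusted p = 0.114). Jund, an AP-1 subunit, was at 34.3 ± 7.12 CPM in SRF-KO OLs and 59.6 ± 9.73 CPM in control OLs (log2 -0.79, edgeR adjusted p = 0.119). Btg2 and Jund each had the same sign in OPCs, and their groups did not overlap there. The OPC log2 fold change was 0.45 for Btg2 (edgeR adjusted p = 0.187) and -0.89 for Jund (edgeR adjusted p = 0.299). SRF-KO OPC replicate 2 was the lowest library for Jund, at 13.3 CPM. With 1 library left out, the OPC log2 fold change of Jund ranged from -1.18 to -0.51. Btg2 passed in 2 other settings in each stage, and Jund in 3 in OLs and 1 in OPCs.

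The 11 cofactors of SRF and CREB were tested in both stages and edgeR called 0 in each. In OPCs 2 were lower and 1 higher at an unadjusted p under 0.05, with a median of -0.15. In OLs 0 were lower and 1 higher, with a median of 0.13. The shares over all genes were 6.33% lower and 5.57% higher in OPCs, and 5.73% lower and 5.84% higher in OLs. Crem, a CREB relative that includes repressor isoforms, was at 33.9 ± 1.58 CPM in SRF-KO OPCs (SD, n = 3) and 24.8 ± 2.78 CPM in control OPCs (SD, n = 4; log2 0.45, edgeR adjusted p = 0.242). It was at 37.7 ± 2.45 CPM in SRF-KO OLs and 31.3 ± 1.43 CPM in control OLs (SD, n = 4 each; log2 0.27, edgeR adjusted p = 0.409). Crtc2, a CREB coactivator, was at 9.62 ± 1.13 CPM in SRF-KO OPCs and 13.6 ± 1.99 CPM in control OPCs (log2 -0.51, edgeR adjusted p = 0.332). Elk3, a ternary complex factor, was at 12.9 ± 3.89 CPM in SRF-KO OLs and 17.5 ± 1.97 CPM in control OLs (log2 -0.40, edgeR adjusted p = 0.482). SRF-KO OL replicate 4 was its lowest library, at 8.3 CPM. With 1 library left out, its OL log2 fold change ranged from -0.61 to -0.27. Of 13 AU-rich messages known to bind Zfp36 protein, only 3 were expressed highly enough to be tested in OPCs (Ier3, Lif and Vegfa) and 2 in OLs (Ier3 and Vegfa). edgeR called 0 of them in either stage. Lif, a cytokine, was at 3.04 ± 0.457 CPM in SRF-KO OPCs and 1.71 ± 1.36 CPM in control OPCs (log2 0.88, edgeR adjusted p = 0.514). Control OPC replicate 3 was at 3.73 CPM, the other 3 control OPC libraries at 0.895 to 1.12, and without it the log2 fold change was 1.56 (edgeR adjusted p = 0.330). Vegfa, an angiogenic growth factor, had a log2 fold change of -0.03 in OPCs and 0.07 in OLs.

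Across the 15 libraries, with the mean of each stage removed, each member tested in both stages was set against up to 8460 genes of average log2 CPM of at least 3, by Pearson's r of log2 CPM. Genotype differences within a stage remain in these values, so r describes likeness over 4 groups of libraries and not over independent samples. The genes shown were picked as the highest of all these, so their r is raised by that choice. The closest to Arc were Hnrnpab (r = 0.957, and 0.928 over the 13 libraries without SRF-KO OPC replicate 2 and SRF-KO OL replicate 4), Nr2f6 (0.931 and 0.847) and Fjx1 (0.928 and 0.863). The closest to Ier2 were Zyx (0.917 and 0.893), Timm23 (0.869 and 0.947) and Vgll4 (0.860 and 0.824). For Nr4a1 they were Mybbp1a (0.887 and 0.837), Fbxo31 (0.886 and 0.828) and Lima1 (0.880 and 0.795). For Klf6 they were Ccnb2 (0.924 and 0.916), Ephx1 (0.919 and 0.855) and Hbegf (0.916 and 0.858). Within OPCs these were 0.508, 0.636 and 0.877, and within OLs 0.983, 0.982 and 0.933.

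For Klf10 and Ier5 most r values were far lower without the libraries that stood apart. Klf10 was closest to Gpbp1 (r = 0.964), Elovl5 (0.962) and Champ1 (0.962), at 0.656, 0.592 and 0.584 over the 13 libraries. Ier5 was closest to Sh2b3 (0.939 and 0.816), Rnf26 (0.933 and 0.552) and Anp32e (0.927 and 0.540). Ier3 was closest to Ola1 (0.841 and 0.803), H2-T22 (0.833 and 0.785) and Rabggtb (0.818 and 0.802). Within OPCs these were 0.705, 0.321 and 0.316, and within OLs 0.862, 0.914 and 0.889. Nr4a2 was closest to Cct2 (0.863 and 0.838), Prr18 (0.832 and 0.869) and Slc30a4 (0.828 and 0.796). Zfp36 was closest to Irf2bp2 (0.845 and 0.721), Zfp61 (0.832 and 0.707) and Wdr35 (0.819 and 0.658).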

How the data were processed

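PolyA RNA of 15 libraries was made into unstranded Smart-seq2 libraries and read as single reads of 63 bases, per the labels' protocols. Per the submitters' processing notes, the authors' tools were RSEM, STAR and bcl2fastq, with versions not given in the sources used here. Rnor_6.0 and GRCm38 are both named as builds there, with no role stated. The deposited values used are RSEM expected counts, the authors' estimate of reads per gene, and TPM, which the authors scaled by effective length. Of 8995 single-transcript genes with an intron, the listed length equals the spliced length in 89.8% in each OPC file and the genomic span in 90.0% in each OL file, so OL counts take in introns and levels were not tested between stages. The sample titles gave the groups. Other label fields disagree with the titles for the SRF-KO OLs (a treatment tag with the word control) and for the cells and Cre of the whole series (design text), whereas Srf values go with the titles.

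Expected counts were rounded, filtered with filterByExpr, scaled by TMM and tested in edgeR 4.0.16 (R 4.3.3), with the quasi-likelihood test and Benjamini-Hochberg adjustment at 0.05 over all genes tested. The SE was derived from the F statistic as the size of the log2 fold change over the root of F. Log2 CPM used a prior count of 2. Alternatives were DESeq2 1.42.0, limma 3.58.1 (voom, and a trend fit on log2(TPM + 1)), library totals, no filter, mitochondrial genes left out, all 15 libraries, a replicate block and each library left out. Coordinates are from GENCODE M21 on GRCm38. The genes named are the members, Srf, the 2 genes of smallest p from each list and stage, and the 3 genes most like each member. Members and lists were chosen with earlier results of these data known. The tests were tried on simulated counts. No replicate pair was identical.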

Additional observations from a re-analysis of the deposited data

Results flagged for a closer look

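Values of the members were searched for a library far from the others of its group, among the 30 sets of 4 libraries that the 3 groups of 4 and 10 members give, and 2 were found. Chance alone flags about 1 in 20 such sets. Arc in control OPC replicate 1 was at 15.22 CPM, where the other 3 control OPC libraries were at 12.63 to 12.73 CPM, and this gap was 0.963 of the range. Without that library the log2 fold change of Arc in OPCs was -1.25 (edgeR adjusted p = 0.224). Klf10 in control OPC replicate 1 was at 161.3 CPM, where the other 3 were at 196.7 to 201.6 CPM, and this gap was 0.879 of the range. Without that library the log2 fold change of Klf10 in OPCs was -0.46 (edgeR adjusted p = 0.106). The flagged library was thus the highest of its group for Arc and the lowest for Klf10.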

How the results depend on the processing

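In OPCs edgeR called 9 genes (3 higher, 6 lower), against 127 with DESeq2, 101 with no filter, 31 over all 15 libraries, 5 on log2(TPM + 1), 13 with library totals (6 higher, 7 lower) and 1 to 4 with 1 library left out (4 without SRF-KO OPC replicate 2). Members called numbered 0, against 3 with DESeq2, 2 with no filter, 1 over all 15 libraries and 0 with any library left out. In OLs it called 45 genes (10 higher, 35 lower), against 299 with DESeq2, 129 with no filter, 94 over all 15 libraries, 74 with library totals (39 higher, 35 lower), 3 on log2(TPM + 1) and 7 to 636 with 1 library left out. The 7 came without SRF-KO OL replicate 2, 8 without SRF-KO OL replicate 3 or control OL replicate 2 or 3, 14 without control OL replicate 1, 71 without control OL replicate 4 and 636 without SRF-KO OL replicate 4. For the difference between stages it called 18 genes (7 higher, 11 lower), against 166 with DESeq2, 32 with no filter, 22 with library totals (11 higher, 11 lower) and 4 to 134 with 1 library left out (4 without SRF-KO OPC replicate 2, 134 without SRF-KO OL replicate 4). Members called stayed at 0 in both of these in every setting run. With the replicate number as a block, edgeR called 2 genes in OPCs, 5 in OLs and 0 for the difference, with 0 members in each. Deviations of same-numbered libraries correlated at 0.0144, 0.049 and -0.0157 in OPCs and at 0.0264, -0.239, -0.0781 and -0.281 in OLs. For OPC replicates 1 and 2 these were above the highest value with another number (0.00679 and 0.0152). For OPC replicate 3 and all OL replicates they were below it. With so few libraries per group, these values cannot decide whether the numbers pair the samples. Signs turned for log2 fold changes near 0. In OPCs these were Ier3 (0.0131 with library totals and 0.00747 with the block), Klf6 (-0.00418 with no filter, -0.00754 over all 15 libraries, -0.0755 on log2(TPM + 1)) and Vegfa (0.0576 on log2(TPM + 1)). In OLs library totals gave Ier2 0.18, Klf10 0.12 and Egr1 0.0899, and log2(TPM + 1) gave Ier2 0.24, Klf10 0.0180, Egr1 0.17, Nr4a1 0.00802, Klf9 0.0616 and Zfp36l1 0.0559. For the difference, library totals gave Zfp36 0.0831, Zfp36l1 0.13 and Crem 0.0148. With 1 library left out, the ranges that crossed 0 were -0.18 to 0.0881 for Ier3, -0.27 to 0.25 for Klf4, -0.11 to 0.0722 for Klf6 and -0.61 to 0.26 for Vegfa in OPCs. In OLs they were -0.24 to 0.0461 for Ier2, -0.27 to 0.15 for Klf10, -0.0557 to 0.25 for Zfp36 and -0.22 to 0.00314 for Egr1. For the difference they were -0.31 to 0.0552 for Zfp36, -0.26 to 0.37 for Jund and -0.19 to 0.65 for Vegfa. The cause was not tested, beyond library totals moving all OL values up. Low counts, given with each gene, limit Arc, Nr4a2, Klf4 and Zfp36 in OPCs.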

Other observations

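Ier2 and Ier5 are single-exon genes with the same listed length in both kinds of file, so their ratio within a library is not touched by intron counting. The TPM of Ier2 over that of Ier5 was 4.66, 15.3 and 4.87 in SRF-KO OPCs and 5.47, 7.35, 5.11 and 6.39 in control OPCs. In SRF-KO OLs it was 0.676, 0.850, 0.747 and 1.64, and in control OLs 1.10, 1.00, 1.25 and 0.926. Every OL library was below every OPC library, and within each stage the SRF-KO and control ranges overlapped. The high value in OPCs was that of SRF-KO OPC replicate 2, where Ier5 was low, and the high value in OLs that of SRF-KO OL replicate 4, where Ier2 was high. Virus, time in culture and stage cannot be told apart in this ratio, and no test was made.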
